A study of Mus musculus with 12 samples.

Results

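Hearts of wild-type C57BL/6 mice at postnatal day 45 were compared between an angiotensin II (AngII) model of cardiac hypertrophy and sham-operated controls, with both groups given gastrodin at 50 mg/kg/day by the gastric route for 7 days. The comparison rests on 4 of the 12 libraries of the series: AngII 50 mg numbers 5 and 6, and sham 50 mg numbers 11 and 12. These libraries were assigned by their labels, and the comparison was chosen with earlier results of these data known. Gastrodin was thus common to both groups, and no untreated animal enters the comparison itself. The other 8 libraries, AngII and sham at 0 mg (vehicle) or 5 mg with 2 libraries each, entered the fit to estimate the spread. The labels give neither the route and dose of AngII nor heart weight, blood pressure, sex, or whether each library was 1 animal. The p-values therefore measure only the spread between these samples, which may be technical.

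Angiotensin II is the effector peptide of the renin-angiotensin system. It constricts vessels, raises blood pressure and acts on heart muscle cells and fibroblasts, and long exposure is used to produce an enlarged, stiffened heart in mice. Heart muscle under such load is known to raise natriuretic peptides and the slow myosin Myh7, while activated fibroblasts lay down collagen. Gastrodin is a phenolic glucoside from the orchid Gastrodia elata. The title of the series places its effect at insulin-like growth factor 2 and its receptor, so Igf2 and Igf2r were among the genes fixed for reporting.

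The 4 libraries held between 72269590 and 74431662 counts. Most counts came from mitochondrial genes (63.9 to 73.4%) and from nuclear copies of them (15.9 to 19.5%). The share of all other genes was higher in AngII (9.51 and 18.1%) than in sham (6.98 and 9.30%), and with 2 libraries against 2 an exact permutation test cannot go below p = 0.333. Ribosomal RNA loci took 10.8% of the counts of sham 50 mg number 12 and 0.0724 to 0.0927% of the other 3, so that library stood apart before any gene was compared. Heart muscle genes fixed as markers were present in every library: all 10 had counts, with a summed level of 8354 and 9663 CPM in AngII and 4792 and 4099 CPM in sham. CPM are counts scaled to the library size after TMM normalization. Values are given below in the order AngII numbers 5 and 6, then sham numbers 11 and 12.

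Among 16723 genes tested, 906 passed an adjusted p of 0.05 by edgeR's quasi-likelihood F-test with Benjamini-Hochberg adjustment, which is 5.42% of those tested. Of these, 675 were higher in AngII (4.04%) and 231 lower (1.38%). At an unadjusted p under 0.05 there were 4009 genes, and the median gene differed by 0.03 on the log2 scale. The libraries of both groups did not overlap for any of the 906 genes, but the same held for 59.0% of all genes tested. Nearly all called genes (905) differed at least 2-fold. In simulated libraries of this design the test found 9% of 2-fold, 58% of 4-fold and 92% of 8-fold changes, so small differences were mostly not detectable there. Only 100, 50 and 50 genes in turn were changed among 15771, so these rates need not hold for the real libraries. The count was 452 without AngII number 5, 184 without AngII number 6, 203 without sham number 11 and 50 without sham number 12, of which 46 were among the 906. Without sham number 12 the split was 29 higher and 21 lower. With the deposited TPM values and limma-trend 18 genes passed, 5 higher and 13 lower, so that the larger side was turned. With DESeq2 2276 passed, 1478 higher and 798 lower. The count was 535 without sham number 12 and AngII 5 mg number 4, which lay far from its group partner on the first principal component, and 816 after a correction for GC content in every library, then with 516 higher and 300 lower.

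**Figure D1:**
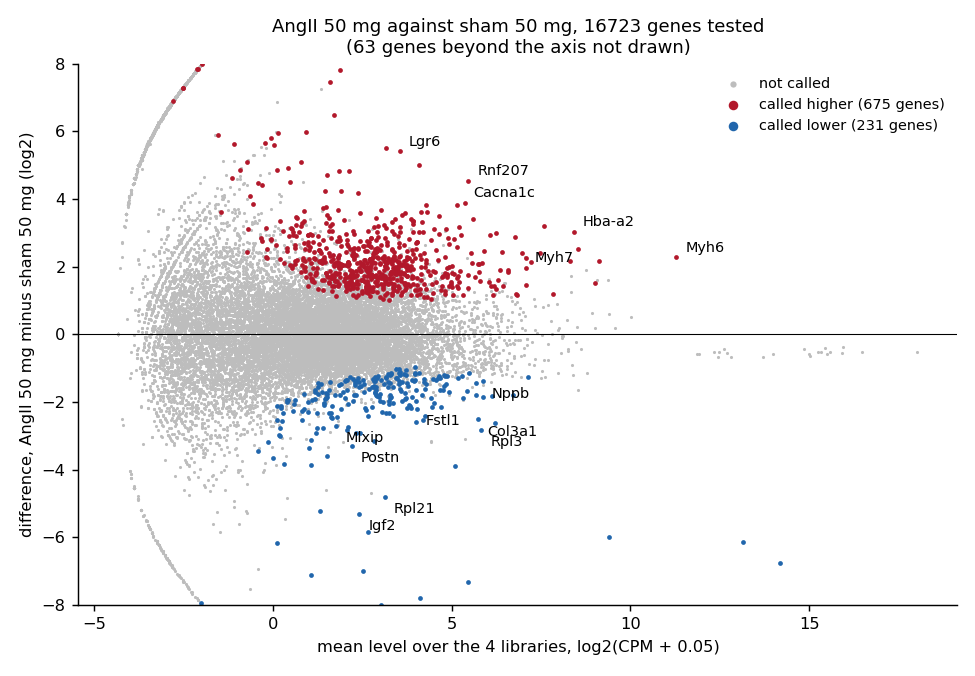
Mean level over the 4 libraries (x, log2 of CPM + 0.05) against the difference AngII 50 mg minus sham 50 mg (y, log2) for the genes tested. Red points are the 675 genes called higher and blue points the 231 called lower; 63 genes beyond the y axis are not drawn.

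Extracellular matrix genes were the list with the most called members. Of 45 tested genes of matrix and fibrosis, 21 fell and none rose, 44 lay below 0, and the median difference was -1.71 on the log2 scale, beside 0.03 for all genes. Collagen III (Col3a1), a fibrillar collagen of heart and vessel walls, was at 18.3 and 13.6 CPM in AngII and at 98.5 and 83.7 CPM in sham. Both AngII libraries lay far below both sham libraries, with a difference of -2.52 ± 0.42 (log2 ± SE, adjusted p = 0.00837, edgeR), although Col3a1 shares exon bases with the predicted gene Gm47302. Collagen I (Col1a1), the main fibrillar collagen of scars, was at 8.98 and 7.09 CPM against 36.0 and 34.8 CPM, a difference of -2.14 ± 0.47 (adjusted p = 0.0248, edgeR). Periostin (Postn), which activated fibroblasts secrete, was at 1.16 and 0.532 CPM against 10.5 and 6.13 CPM (-3.31 ± 0.51, adjusted p = 0.00646, edgeR). Fstl1, a secreted glycoprotein, was at 5.88 and 5.58 CPM against 28.9 and 24.4 CPM (-2.22 ± 0.32, adjusted p = 0.00474, edgeR). Fibrillin 1 (Fbn1), the backbone of elastic microfibrils, was at 3.46 and 3.88 CPM against 14.3 and 16.5 CPM. The lysyl oxidase homologue Loxl1, which crosslinks elastin, was at 4.24 and 4.27 CPM against 14.9 and 15.7 CPM. In all 6 genes the lower sham library was above the higher AngII library. The groups likewise did not overlap for any of the 906 called genes, or for 59.0% of all genes tested. The further called members were Timp1, Col8a1, Itgbl1, Loxl2, Ccn2, Col14a1, Lum, Mmp2, Col6a2, Col15a1, Bgn, Dcn, Sparc, Col1a2 and Col4a1, with differences from -3.18 (Timp1) to -1.44 (Col4a1). Members of a list beyond its 4 smallest p-values were named after their values were seen, here and below. Fibronectin (Fn1, -1.04) and elastin (Eln, -0.58) did not pass. The number of called matrix genes was 9 without AngII number 5, 5 without AngII number 6, 11 without sham number 11, 4 without sham number 12 and 16 without sham number 12 and AngII 5 mg number 4. With the deposited TPM values and limma-trend it was 0, and the median of the list was -0.46.

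The position of both groups among all 12 libraries set these differences in context. The summed level of the matrix genes was 370 and 401 CPM in AngII 50 mg and 1158 and 1134 CPM in sham 50 mg, while the other 8 libraries ranged from 393 to 613 CPM. The sham libraries thus lay above all 10 others, while the AngII libraries lay around the lower end of that range. Of the 21 called matrix genes, 19 were higher in both sham 50 mg libraries than in any of the other 10, and 3 were lower in both AngII 50 mg libraries than in any of the other 10. Over all 231 called lower genes these counts were 155 and 57, and over all genes tested the shares were 6.22 and 1.52%. Col3a1 was between 18.5 and 42.9 CPM in the other 8 libraries and Fbn1 between 2.97 and 7.04 CPM. AngII against sham at the other doses, in libraries outside this comparison, gave a median for the same 45 genes of 0.03 in vehicle and -0.13 at 5 mg, with no called member in either.

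Genes that mark fibroblasts moved with the matrix genes. Of 12 fibroblast markers, 7 fell, all 12 lay below 0, and their summed level was 237 and 298 CPM in AngII and 701 and 712 CPM in sham. All 12 had counts in all 4 libraries. The called members were Mfap5 (-2.19), the proteoglycan lumican (Lum, -2.31), Medag (-1.89), Col1a1, decorin (Dcn, -1.82), Col1a2 (-1.71) and Tcf21 (-1.99), a transcription factor of the cardiac fibroblast lineage. Pdgfra, a receptor used to sort cardiac fibroblasts, was at 2.66 and 3.52 CPM against 6.12 and 6.44 CPM and did not pass (-1.02, adjusted p = 0.211, edgeR). In bulk tissue, fewer cells of a type and less RNA per cell cannot be told apart. The count of called fibroblast markers was 2 without AngII number 5, 1 without AngII number 6 or sham number 11, and 0 without sham number 12.

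Macrophage markers also lay lower in AngII, without a called gene. All 15 tested markers were below 0 with a median of -1.68, and their summed level was 62.4 and 45.7 CPM in AngII and 182 and 151 CPM in sham. Csf1r, the receptor for the main macrophage growth factor, was at 4.90 and 3.61 CPM against 13.8 and 10.1 CPM (adjusted p = 0.0568, edgeR). The complement gene C1qc was at 7.89 and 5.48 CPM against 22.4 and 20.4 CPM (adjusted p = 0.0632, edgeR). At an unadjusted p under 0.05 there were 11 of the 15 in edgeR, all lower, and DESeq2 called 10. Cytokines and chemokines showed a median of -1.29 over 18 genes, of which none passed in edgeR, 5 had an unadjusted p under 0.05 and DESeq2 called 4. Neutrophil markers summed to at most 1.67 CPM and lymphocyte markers to at most 5.70 CPM in any of the 4 libraries. The part of these cell types in the matrix difference was not tested.

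**Figure D2:**
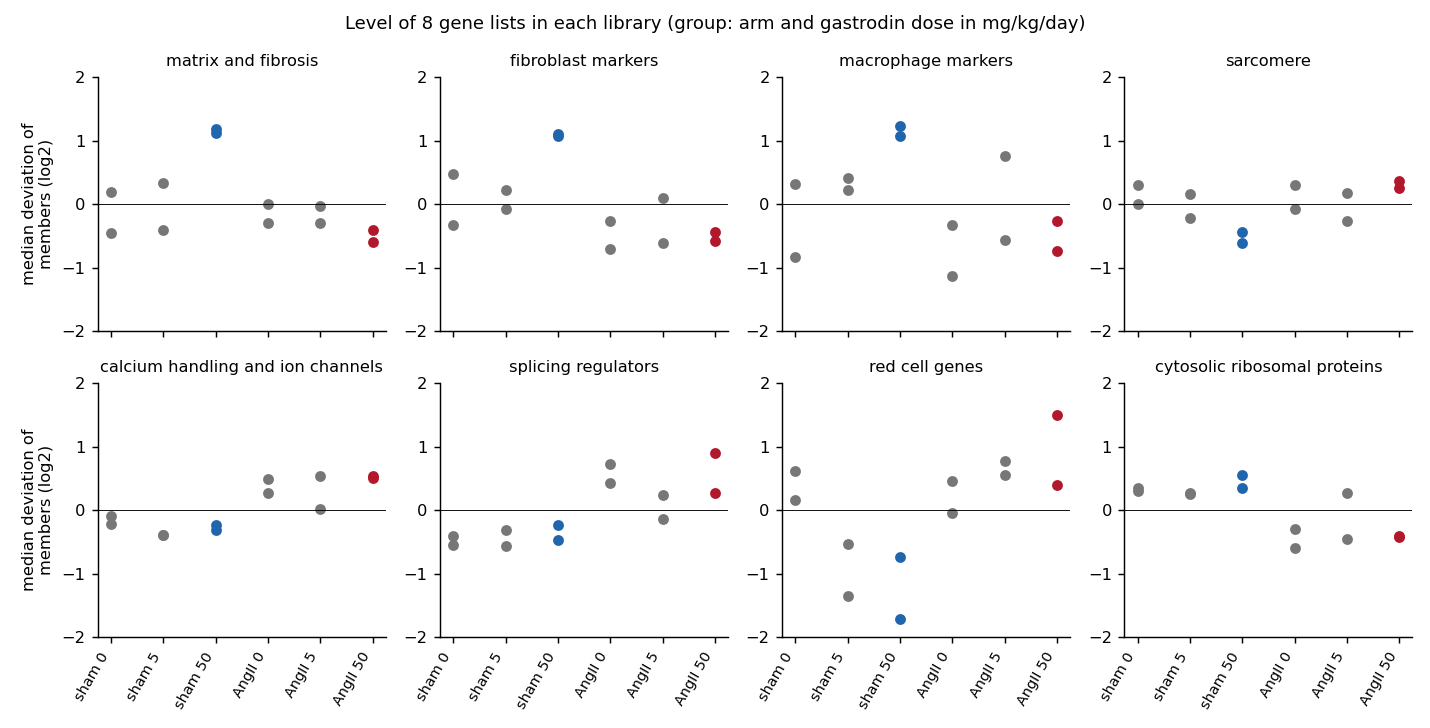
Level of 8 gene lists in each of the 12 libraries. The y axis is the median over the tested members of the log2 deviation from the mean of all libraries; each point is 1 library, blue for sham 50 mg, red for AngII 50 mg, grey for the rest. For matrix genes and for fibroblast and macrophage markers both blue points lie above all others.

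The TGF-beta pathway, which drives matrix production, held few called genes. In it, 2 of 25 tested genes fell (8%, beside 5.42% called of all genes tested) and none rose, with a median of -0.29. The ligand Tgfb3 was at 5.38 and 3.75 CPM against 10.6 and 12.9 CPM (-1.37 ± 0.31, adjusted p = 0.0273, edgeR). Its receptor Tgfbr2 was at 3.08 and 2.48 CPM against 7.30 and 7.14 CPM (-1.38 ± 0.35, adjusted p = 0.0385, edgeR). Neither was called without AngII number 5, AngII number 6, sham number 11 or sham number 12. The remaining 23 genes, among them the receptor Eng (1.02) and Smad4 (-0.52), did not pass.

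The markers of muscle load did not move together. Brain natriuretic peptide (Nppb, chromosome 4, 147985788 to 147987205), a hormone that stretched heart muscle releases, fell from 88.8 and 80.8 CPM in sham to 34.8 and 29.8 CPM in AngII (-1.39 ± 0.34, adjusted p = 0.0337, edgeR). Its neighbour atrial natriuretic peptide (Nppa) was at 186 and 221 CPM against 617 and 315 CPM and did not pass (-1.20 ± 0.42, adjusted p = 0.106, edgeR). Both genes were thus lower in both AngII libraries than in either sham library, as were 28.4% of all genes tested. In this list, 2 of the 9 tested genes of the natriuretic peptide system rose: Corin, the protease that activates the atrial peptide (14.5 and 28.9 against 7.36 and 3.35 CPM, 2.02 ± 0.43), and Npr2, a receptor (23.7 and 27.7 against 7.30 and 3.48 CPM, 2.26 ± 0.55). Skeletal actin (Acta1), another gene of the fetal programme, was at 247 and 129 CPM against 167 and 289 CPM, so that its groups overlapped (-0.28 ± 0.42, adjusted p = 0.735, edgeR). Its sign turned to 0.15 without AngII number 6 and 0.18 without sham number 12. Ankrd1, a stretch-responsive muscle protein, was at 113 and 99.99 CPM against 275 and 242 CPM (adjusted p = 0.0910, edgeR). In the other 8 libraries Nppb was between 30.5 and 102 CPM, so neither group stood outside the series. No call in the natriuretic list was left without AngII number 6 or without sham number 12.

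Both myosin heavy chains rose. Myh6, the fast chain of the adult mouse ventricle, was at 4052 and 4252 CPM in AngII and 1029 and 678 CPM in sham (2.28 ± 0.49, adjusted p = 0.0237, edgeR). Myh7, the slow chain of the fetal and loaded heart, was at 154 and 277 CPM against 68.9 and 41.7 CPM (1.96 ± 0.43, adjusted p = 0.0238, edgeR). The differences of Myh6 and Myh7 were thus within 1 SE of each other. Across the other 8 libraries Myh6 ranged from 1215 to 3912 CPM and Myh7 from 82.9 to 211 CPM. Both sham 50 mg libraries lay below these ranges for either gene, and both AngII 50 mg libraries lay above the range of Myh6. Both genes lost the call without AngII number 6, sham number 11 or sham number 12.

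Each myosin gene hosts a microRNA in an intron, and the count on the one in Myh7 rose. Mir208b (chromosome 14, 54975700 to 54975776, minus strand, GRCm38) was at 4.52 and 8.32 CPM in AngII and 0.0552 and 0.0838 CPM in sham (6.47 ± 0.79, adjusted p = 0.00289, edgeR), and it was singled out after its values were seen. The AngII libraries held 316 and 1047 counts on this locus and the sham libraries 3 and 6. Counts on this locus do not tell the microRNA from unspliced Myh7 RNA. The mature products of both myosin introns are shown because they are nearly the same molecule, from RefSeq on GRCm38.p6, with the seed (bases 2 to 8) in capitals.
miR-208b-3p, chromosome 14, 54975710 to 54975731, minus strand, in Myh7: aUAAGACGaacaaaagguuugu
miR-208a-3p, chromosome 14, 54949072 to 54949093, minus strand, in Myh6: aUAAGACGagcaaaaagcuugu
Of 22 bases, 3 differed, and none of these was in the seed.

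Of 24 sarcomere genes tested, 7 rose, both myosins among them, and none fell, with a median of 0.83. The other 17 did not pass, and 4 lay below 0. Myomesin (Myom1), which ties thick filaments at the M-band, was at 272 and 217 CPM against 59.9 and 51.7 CPM (2.13 ± 0.38, adjusted p = 0.0110, edgeR). The Z-disc protein Ldb3 was at 106 and 93.8 CPM against 38.9 and 35.7 CPM (1.42 ± 0.31, adjusted p = 0.0234, edgeR). In both genes the AngII libraries lay above both sham libraries, as was so for 30.6% of all genes tested. Other called members included Myh6, Myh7, alpha-actinin 2 (Actn2, 1.84) and cardiac troponin I (Tnni3, 1.53, which shares exon bases with Dnaaf3). Titin (Ttn, 1.90) did not pass, and cardiac actin (Actc1, -1.14) lay below 0. Of the 7 called genes, 6 were lower in both sham 50 mg libraries than in any of the other 10 libraries. In both AngII 50 mg libraries 3 were higher than in any of the other 10. Over all 675 genes called higher these shares were 43.9 and 23.4%, and over all genes tested 4.47 and 3.09%. Calls were made from the same libraries, so such extremes are more frequent among called genes by selection. The count of called sarcomere genes was 5 without AngII number 5, 1 without AngII number 6, and 0 without sham number 11 or sham number 12.

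**Figure D3:**
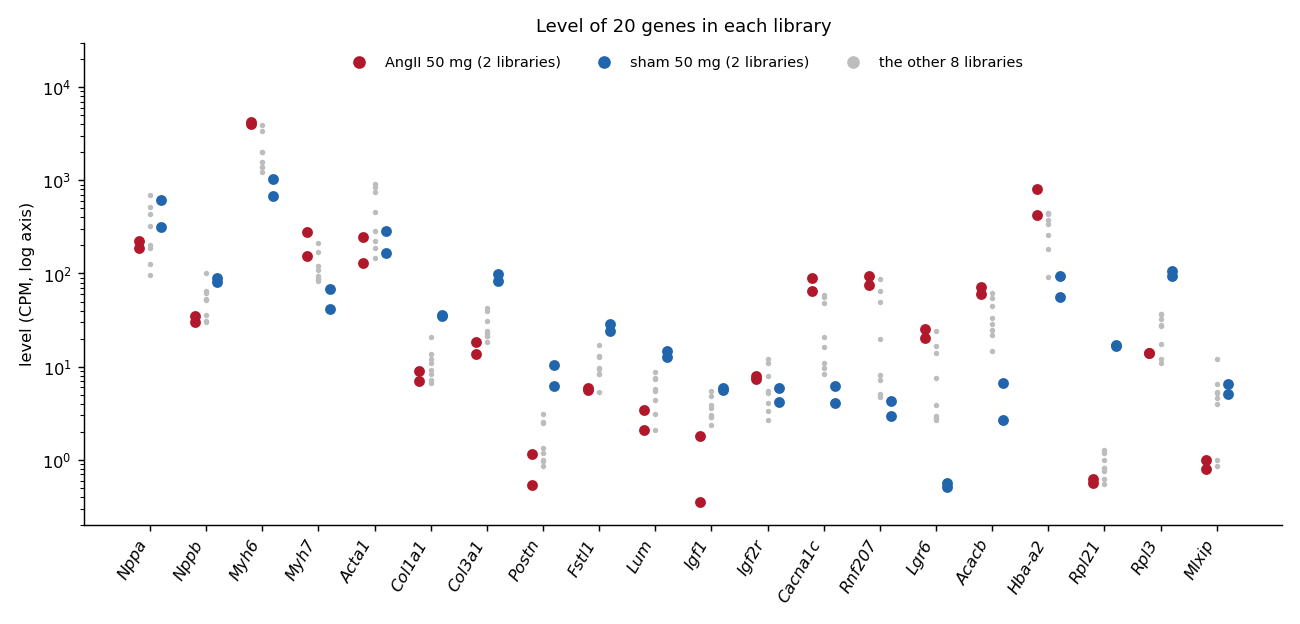
Level of 20 genes in each library (y, CPM on a log axis). Red points are the AngII 50 mg libraries, blue points the sham 50 mg libraries and grey points the other 8. For Col3a1, Postn and Rpl21 both blue points lie above all others, for Myh6 and Cacna1c both lie below all others, and for Acta1 red and blue points overlap.

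Ion channel genes held some of the largest rises. Of 28 genes of calcium handling and ion channels, 7 rose and none fell, with a median of 0.75. Cacna1c (chromosome 6, 118587240 to 119196418), the pore of the cardiac L-type calcium channel, was at 64.8 and 89.0 CPM against 4.08 and 6.26 CPM (3.89 ± 0.50, adjusted p = 0.0032, edgeR). Both sham 50 mg libraries lay below the 8.44 to 59.2 CPM of the other 8 libraries, and both AngII libraries above it. Kcnh2, a potassium channel of repolarisation, was at 35.3 and 45.5 CPM against 4.73 and 4.53 CPM (3.13 ± 0.49). The silent potassium channel subunit Kcnv2 was at 3.36 and 7.35 CPM against 0.368 and 0.0559 CPM (4.71 ± 0.82). Kcnip2, the partner of the transient outward channel, was at 116 and 72.5 CPM against 26.4 and 16.9 CPM (2.12 ± 0.41). None of these potassium channel genes overlapped between the groups, which held for every called gene and for 59.0% of all genes tested. Kcnd3 (3.34), the calcium pump Atp2a2 (1.18) and the calcium release channel Ryr2 (1.49) were the other called members. Called members numbered 3 without AngII number 5, 4 without AngII number 6, 4 without sham number 11 and 1 without sham number 12, where Cacna1c passed in each case. Adcy6, an adenylyl cyclase of heart muscle, rose from 17.1 and 14.3 CPM in sham to 112 and 127 CPM in AngII (2.93 ± 0.55, adjusted p = 0.0139, edgeR) and was the only one of 20 adrenergic and cyclic AMP genes to pass.

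The largest rises by the naming rule lay mostly outside the lists. Lgr6 (chromosome 1, 134983301 to 135105276), a receptor for R-spondins and lipid mediators, was at 20.2 and 25.6 CPM in AngII and 0.515 and 0.559 CPM in sham (5.41 ± 0.72, adjusted p = 0.00352, edgeR). Ush1c, which encodes the scaffold protein harmonin, was at 37.6 and 27.8 CPM against 1.77 and 0.307 CPM (5.00 ± 0.70, adjusted p = 0.00455, edgeR). Rnf207 (chromosome 4, 152307019 to 152318993), a ubiquitin ligase that acts on the Kcnh2 channel, was at 75.1 and 94.2 CPM against 4.30 and 2.95 CPM (4.55 ± 0.57, adjusted p = 0.00289, edgeR). Each of these rises kept its call when any single library was left out. Acacb, the acetyl-CoA carboxylase that restrains fatty acid entry into mitochondria, was at 60.6 and 71.4 CPM against 2.70 and 6.65 CPM (3.81 ± 0.50, adjusted p = 0.00345, edgeR). Pla2g4e (5.50), a phospholipase, shares exon bases with Gm13997, so that its count could hold reads of both. The others of the 12 were Prickle3 (4.18), the endothelial receptor Notch4 (3.81), the deubiquitinase Usp2 (3.67), Aldh9a1 (3.63), Cpeb3 (3.61) and Whrn (3.60), the partner of harmonin in hair cells, with Cacna1c. For Lgr6, Ush1c and Acacb the sham 50 mg libraries were the lowest of the series: the other 8 ranged from 2.69 to 24.0 CPM, 5.76 to 36.4 CPM and 14.8 to 61.4 CPM. The AngII 50 mg libraries of Lgr6, Ush1c and Acacb overlapped these ranges.

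Genes of energy supply rose in part. Of 29 genes of fatty acid uptake and oxidation, 5 rose and none fell, with a median of 0.15. Cpt1b, the gate for fatty acids into muscle mitochondria, was at 94.7 and 173 CPM against 23.1 and 10.3 CPM (3.0 ± 0.68, adjusted p = 0.0275, edgeR), with exon bases shared with Gm44502. The fatty acid transporter Slc27a1 was at 39.0 and 65.0 CPM against 8.48 and 5.88 CPM (2.86 ± 0.47, adjusted p = 0.00835, edgeR). Acsl1, which activates fatty acids, was at 37.9 and 32.7 CPM against 12.3 and 12.1 CPM (1.53 ± 0.28, adjusted p = 0.0126, edgeR). Ucp3 (2.93) and Mlycd (1.02) completed the called members. Of 22 glycolysis genes, 4 rose and none fell: Pfkfb2 (2.46), Hk2 (1.73), Pfkfb1 (3.29) and Pfkm (1.17). Ppargc1b (1.96) and Esrra (1.37), regulators of mitochondrial genes, rose among 15 tested, while Ppargc1a (0.38) did not pass. Of 44 nuclear genes of oxidative phosphorylation, Cox4i1 (1.45) alone passed, and of 36 mitochondrially encoded genes none did in edgeR, at an unadjusted p under 0.05 or in DESeq2 (median -0.43). Called fatty acid genes numbered 4, 2, 2 and 0 and called glycolysis genes 3, 0, 1 and 1 without AngII number 5, AngII number 6, sham number 11 and sham number 12 in turn.

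Of 31 splicing regulators tested, 9 rose and none fell, with a median of 0.97. The other 22 did not pass, 8 lay below 0, the lowest being Mbnl1 (-2.10) and Rbfox2 (-1.91), and at an unadjusted p under 0.05 there were 17 higher and 2 lower. Among the called genes was Rbm20, which controls titin splicing in heart muscle. Rbm20 was at 45.9 and 70.6 CPM against 8.40 and 8.12 CPM (2.82 ± 0.44, adjusted p = 0.00646, edgeR). The kinase Clk4, which phosphorylates splicing factors, was at 15.6 and 26.4 CPM against 3.13 and 2.03 CPM (3.03 ± 0.44, adjusted p = 0.00473, edgeR). Luc7l, a component of the U1 particle, was at 17.9 and 25.2 CPM against 5.28 and 5.06 CPM (2.06 ± 0.32, adjusted p = 0.00646, edgeR). The groups did not overlap for these genes, as for every called gene and 59.0% of all genes tested. Clk1 (2.80), Clk3, Clk2, Rbm5, Ddx5 and Rbm39 made up the rest of the called genes. None of the 9 was an extreme of the sham 50 mg libraries: the list lay at the same low level in all 6 sham libraries (summed 278 to 340 CPM), and AngII 50 mg was at 537 and 818 CPM. By class of the annotation, the median difference was 0.84 for lincRNA genes and 0.78 for antisense genes. It was -0.54 for 771 processed pseudogenes, of which 5 were called higher and 17 lower, and 0.01 for protein-coding genes. In this order the called shares were 1.97, 2.41, 2.85 and 5.93%, beside 5.42% of all genes tested. The strand of the reads was not given, so antisense and sense reads could not be separated. The share of counts outside mitochondrial and ribosomal RNA also was higher in AngII, as given above; with it as a covariate 445 genes passed, 4 of them splicing regulators. Its part in the result was otherwise not tested. Called splicing regulators numbered 7 without AngII number 5, 4 without AngII number 6, 3 without sham number 11 and 0 without sham number 12.

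**Figure D4:**
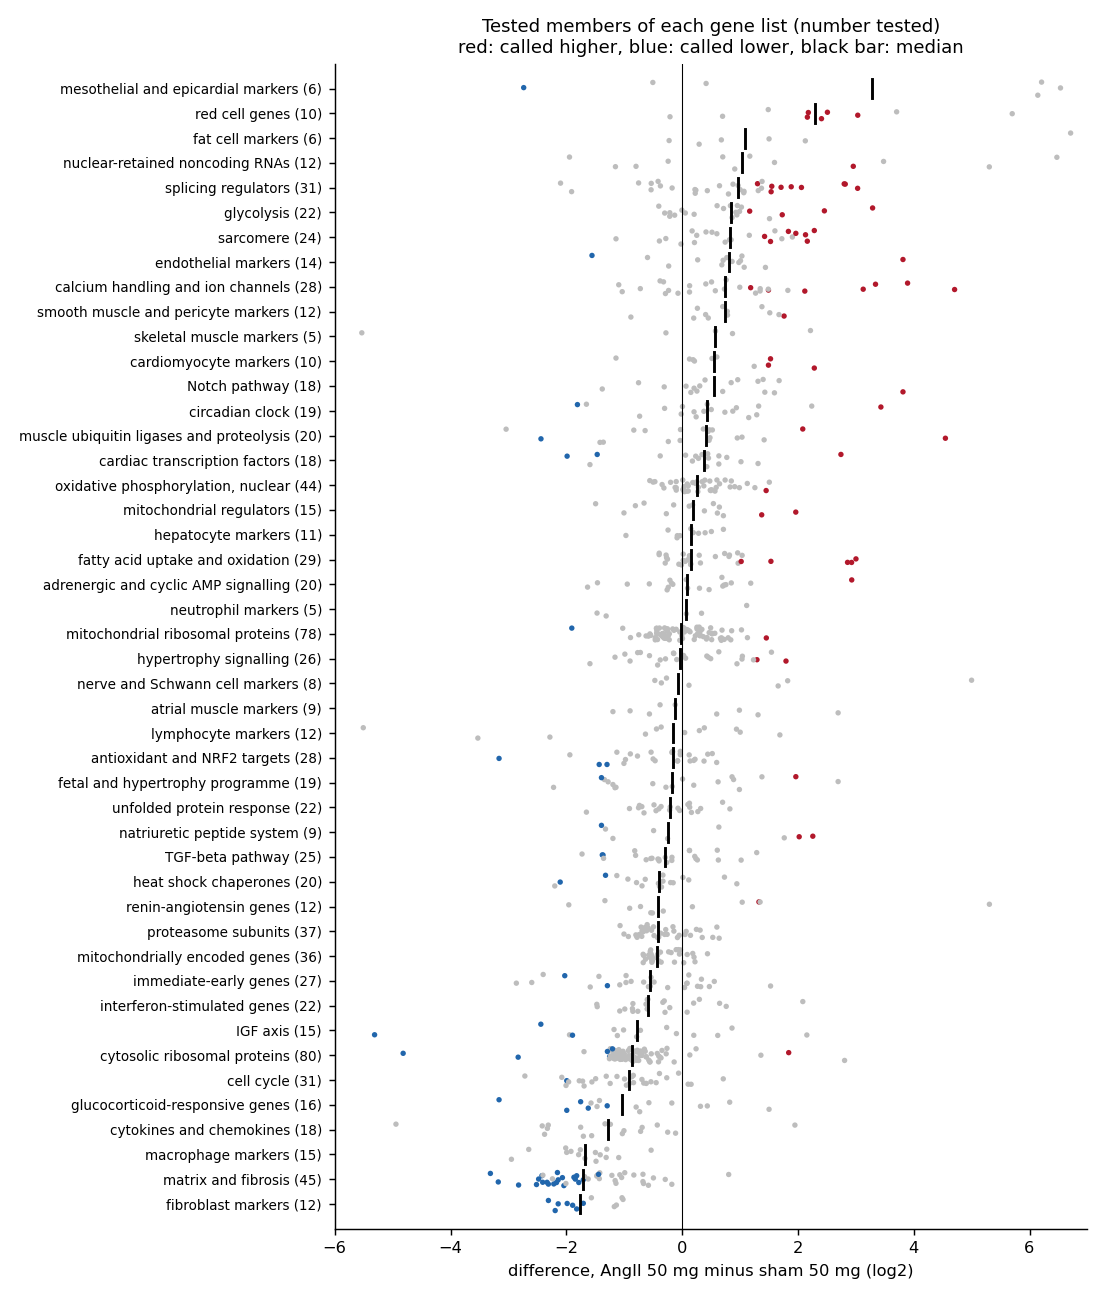
Difference AngII 50 mg minus sham 50 mg (x, log2) of each tested member of the gene lists with at least 5 tested genes; red points passed as higher, blue points as lower, and the black bar is the median; 1 gene beyond the x axis is not drawn. Fibroblast markers (-1.76) and matrix genes (-1.71) have the lowest medians, and red points are found in the sarcomere, ion channel and splicing lists without a blue one.

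Some genes known from red cells and airway cells rose, and the source of their transcripts was not tested. Of 10 red cell genes, 5 rose. Alpha-globin Hba-a2 was at 425 and 797 CPM against 56.2 and 93.1 CPM (3.03 ± 0.46, adjusted p = 0.00646, edgeR). The haem synthesis gene Alas2, specific to the red cell lineage, was at 9.95 and 23.2 CPM against 2.89 and 4.43 CPM (2.18 ± 0.48, adjusted p = 0.0239, edgeR). Hba-a1 (2.16), Hbb-bs (2.51) and Hbb-bt (2.41) were the other called members, and globin copies of one locus are so alike that counts may be split between them. Summed red cell genes were at 1607 and 3369 CPM in AngII 50 mg, 305 and 625 CPM in sham 50 mg and 378 to 2128 CPM in the other 8 libraries. The airway secretoglobin Scgb1a1 was at 2.61 and 1.40 CPM in AngII and had no count in either sham library, at least 76.8-fold higher with a floor of 3 counts over the sham libraries together. Scgb3a2 was at least 16.9-fold higher by the same floor. Scgb1a1 was between 0.10 and 8.81 CPM in the other 8 libraries, so both AngII 50 mg values lay within that range. Of the lung and airway list, 4 genes were tested and all lay above 0 (median 5.25). Of these, 2 passed (50%, beside 5.42% of all genes tested) and 3 had an unadjusted p under 0.05 in edgeR. Counts were found for 5 of its 9 members in each AngII library, and for 2 and 1 in sham. Their summed level was 3.97 and 2.41 CPM against 0.294 and 0.0559 CPM. The surfactant genes Sftpb, Sftpa1 and Sftpd had no count in any of the 4 libraries. Hepatocyte markers summed to 81.9 and 29.7 CPM against 46.4 and 52.6 CPM, with none of 11 called in edgeR or DESeq2 or at an unadjusted p under 0.05. Of the red cell genes, 5 passed without AngII number 5 and 1, Hba-a2, without any other of the 4 libraries.

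Endothelial and smooth muscle markers lay mostly above 0 with few calls. Of 14 endothelial markers, 11 lay above 0 (median 0.82), Notch4 rose, and Erg, a transcription factor of endothelial cells, fell from 14.5 and 13.1 CPM in sham to 4.91 and 4.47 CPM in AngII (-1.56 ± 0.35, adjusted p = 0.0255, edgeR). The summed endothelial level was 164 and 278 CPM in AngII and 134 and 111 CPM in sham. Of 12 smooth muscle and pericyte markers, 11 lay above 0 (median 0.74), and Smtn, a contractile protein of smooth muscle, rose from 19.2 and 20.9 CPM to 63.8 and 71.9 CPM (1.76 ± 0.37, adjusted p = 0.0215, edgeR). Erg lost its call without any 1 of the 4 libraries, and Notch4 and Smtn without AngII number 6, sham number 11 or sham number 12. Summed smooth muscle markers were at 197 and 351 CPM against 165 and 161 CPM. In vehicle, in libraries outside this comparison, the medians of the endothelial and smooth muscle lists were 1.22 and 1.29.

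The growth factor axis named in the title of the series was lower at the ligands. Igf2, a fetal growth factor, was at 0.530 and 0.0318 CPM in AngII and 8.66 and 12.03 CPM in sham (-5.31 ± 0.84, adjusted p = 0.00662, edgeR). That value was not one of Igf2 alone. Igf2 (chromosome 7, 142650766 to 142666816, minus strand) shares exon bases with the gene model Gm49394 (142650769 to 142669942), and the reads of the locus were divided between both in a way that followed the group. Gm49394 had 166 and 290 counts in AngII 50 mg, also had counts in both sham vehicle libraries, and had 0 in the other 8 libraries. The 2 genes added together were at 2.91 and 2.34 CPM in AngII and 8.66 and 12.03 CPM in sham. The locus as 1 unit thus still fell, by a smaller amount (-1.98 ± 0.39, adjusted p = 0.0150, edgeR). It was at 3.23 to 8.15 CPM in the other 8 libraries, so that AngII 50 mg was the lowest and sham 50 mg the highest group.

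The receptor side did not follow. Igf2r, which clears IGF2 and sorts lysosomal enzymes, was at 7.46 and 7.93 CPM against 4.16 and 5.88 CPM and did not pass (0.62 ± 0.41, adjusted p = 0.371, edgeR). Igf1, the growth factor of adult tissue, was at 1.79 and 0.350 CPM against 5.57 and 5.84 CPM (-2.44 ± 0.55, adjusted p = 0.0261, edgeR). The binding protein gene Igfbp4 was at 24.6 and 9.02 CPM against 57.7 and 67.1 CPM (-1.89 ± 0.50, adjusted p = 0.0447, edgeR). In all, 3 of 15 genes of the axis fell and none rose, with 1 called without AngII number 6, sham number 11 or sham number 12. The call left in those fits was that of Igf2, whose value, as given above, was not one of Igf2 alone. H19, the imprinted neighbour of Igf2, was at 2.91 and 0.492 CPM against 5.98 and 6.96 CPM (adjusted p = 0.133, edgeR).

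Of 16 genes known to respond to glucocorticoids, 5 fell and none rose, with a median of -1.04. The other 11 did not pass and 4 lay above 0, up to 1.5 for Plin4. At an unadjusted p under 0.05 there were 7 lower and 1 higher. Cdkn1a, an inhibitor of the cell cycle, was at 3.01 and 3.75 CPM against 12.4 and 14.6 CPM (-1.99 ± 0.32, adjusted p = 0.00713, edgeR). Errfi1, a feedback inhibitor of the EGF receptor, was at 3.26 and 3.96 CPM against 14.1 and 10.3 CPM (-1.75 ± 0.32, adjusted p = 0.0114, edgeR). Ddit4, an inhibitor of mTOR, was at 8.66 and 9.89 CPM against 36.6 and 20.5 CPM (-1.62 ± 0.36, adjusted p = 0.0260, edgeR). Both sham 50 mg libraries lay above all other 10 for Cdkn1a, which reached 5.47 CPM elsewhere, and for Ddit4, which reached 13.7 CPM. For Errfi1 they did not, since AngII vehicle reached 10.9 CPM. The metallothionein Mt2 (-3.16) rested on sham number 11, at 22.7 CPM beside 2.57 CPM in number 12, and Tsc22d3 (-1.29) was the fifth. Without any 1 of the 4 libraries, 1 of these genes was called. Maff (-2.03) and Klf6 (-1.29) fell among 27 immediate-early genes, and Dnaja1 (-1.32) and Hspa1a (-2.11) among 20 heat shock chaperones. Srxn1 (-1.43), Sod3 (-1.30) and Mt2 fell among 28 antioxidant genes. The called shares of these lists were 7.41, 10 and 10.7%, beside 5.42% of all genes tested. Without AngII number 5, AngII number 6, sham number 11 and sham number 12 in turn, calls numbered 1, 0, 0 and 0 among immediate-early genes, 0 each time among chaperones, and 0, 0, 0 and 1 among antioxidant genes.

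Transcription factors and other regulators changed singly. Irx4, a factor of ventricular muscle, rose from 1.67 and 1.63 CPM to 14.0 and 8.21 CPM (2.74 ± 0.38, adjusted p = 0.00408, edgeR). Tbx20, a factor of heart development, fell from 14.7 and 15.6 CPM to 4.32 and 3.33 CPM (-1.99 ± 0.31, adjusted p = 0.00646, edgeR), and Hopx (-1.47) fell as well. The remaining 15 of 18 cardiac transcription factors did not pass. Among hypertrophy signalling genes, Nfatc2 (1.79) and Hdac5 (1.29) rose of 26 tested. Called shares were 7.69% there, 8.33% for renin-angiotensin genes and 10.5% for clock genes, beside 5.42% of all genes tested. Of 12 renin-angiotensin genes, Agtrap, which binds the AngII receptor, rose (1.33 ± 0.35, adjusted p = 0.0450, edgeR), while the receptor Agtr1a was at 1.59 and 2.77 CPM against 1.07 and 1.06 CPM and did not pass (adjusted p = 0.219, edgeR). Nfatc2, Hdac5 and Agtrap each lost the call without any 1 of the 4 libraries. The clock gene Per3 rose (3.43) and Bhlhe40 fell (-1.81) among 19 clock genes, and neither was called without AngII number 6 or sham number 12. Cardiac transcription factors had 3, 1, 2 and 0 calls without AngII number 5, AngII number 6, sham number 11 and sham number 12 in turn. Among 20 genes of muscle proteolysis, Rnf207 and Asb2 (2.08) rose and Klhdc10 (-2.44) fell. Klhdc10 was at 0.973 and 0.913 CPM in AngII 50 mg and between 5.00 and 7.47 CPM in each of the other 10 libraries. No gene passed in edgeR among 37 proteasome subunits (median -0.42), 22 genes of the unfolded protein response (-0.21) or 22 interferon-stimulated genes (-0.60), where 10, 2 and 5 had an unadjusted p under 0.05 and DESeq2 called 1, 0 and 1. Of 31 cell cycle genes, of which 28 lay below 0 (-0.91), Cdkn1a alone passed.

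Falls by the naming rule outside these lists were few. The 2 largest, AY036118 and CT010467.1, are ribosomal RNA loci that share exon bases, and they were set by 1 library: AY036118 was at 409 and 273 CPM in AngII, 723 CPM in sham number 11 and 73784 CPM in sham number 12. Neither was called without sham number 12, where the difference of AY036118 was -1.08, or without either AngII library. Rpl21, a protein of the large ribosomal subunit, was at 0.630 and 0.564 CPM against 17.0 and 16.6 CPM (-4.82 ± 0.34, adjusted p = 5.6e-05, edgeR), with exon bases shared with Gm23202 and Gm25091. In the other 8 libraries it was between 0.556 and 1.28 CPM, so that sham 50 mg alone stood out. Mlxip, a glucose-sensing transcription factor also called MondoA, was at 0.802 and 0.985 CPM against 5.11 and 6.54 CPM (-2.70 ± 0.37, adjusted p = 0.00433, edgeR). Mfap4 (-2.92), Aldh1a2 (-2.74), Ptms (-2.63) and Tcf4 (-2.60) complete the set. Ptms lost its call without any 1 of the 4 libraries. Mfap4 lost it without AngII number 6 or either sham library, and Aldh1a2 without either AngII library or sham number 11. Tcf4 kept it in each of these fits. With the deposited TPM values and limma-trend none of these genes was called.

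Ribosomal protein genes lay mostly below 0 with few calls. Of 80 tested, 75 lay below 0 with a median of -0.86, and 7.5% were called, beside 5.42% of all genes tested. At an unadjusted p under 0.05 in edgeR there were 60 lower and 2 higher. In vehicle and at 5 mg, in libraries outside this comparison, the medians were -0.73 and -0.29, with 77 and 69 genes below 0. Among the called genes, 5 fell (Rpl21, Rpl3, Rps13, Rps14 and Rpl39). Rpl3l, the muscle form of Rpl3, rose from 26.4 and 20.7 CPM to 83.1 and 85.3 CPM (1.84 ± 0.31, adjusted p = 0.00867, edgeR). Rpl3 itself was at 14.1 and 14.0 CPM against 107 and 93.5 CPM (-2.83 ± 0.45, adjusted p = 0.00658, edgeR). The muscle form thus rose where the general form fell. Ribosomal protein genes have many near-identical pseudogenes, and counts can be split between them. The pseudogenes named for Rpl3 ran the other way, at 28.9 and 16.0 CPM in AngII and 7.26 and 5.53 CPM in sham, whereas those named for Rpl21 were at 6.34 and 4.19 CPM against 14.8 and 16.3 CPM. The pseudogenes Rpsa-ps10 and Rps26-ps1 were singled out after their values were seen. Rpsa-ps10 was at 3.46 and 5.19 CPM against 69.6 and 59.1 CPM while its parent Rpsa stayed between 120 and 151 CPM. Rps26-ps1 was at 0.186 and 0.127 CPM against 55.0 and 14.5 CPM, with Rps26 between 24.5 and 45.8 CPM. The values of Rpl21 and Rpl3 are therefore uncertain as levels of 1 gene each. Called ribosomal protein genes numbered 4, 3, 3 and 2 without AngII number 5, AngII number 6, sham number 11 and sham number 12 in turn, and 50 with DESeq2.

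Promoter windows of the genes that moved together were read from RefSeq (GRCm38.p6, 250 bases before to 50 bases after a start). They are shown for 3 genes, picked after the values were seen: Col3a1 and Postn, which fell with the matrix genes, and Nppb. Postn has another window in the table, from 54359017 to 54359316 on chromosome 3, which held none of the motifs and is not printed. Capitals mark matches, on either strand and with no overlap among them, to TATAAA (the TATA box), CATTCC (the M-CAT element bound by TEAD factors in muscle) and TGANTCA (the AP-1 element).
Col3a1, chromosome 1, 45311288 to 45311587, plus strand: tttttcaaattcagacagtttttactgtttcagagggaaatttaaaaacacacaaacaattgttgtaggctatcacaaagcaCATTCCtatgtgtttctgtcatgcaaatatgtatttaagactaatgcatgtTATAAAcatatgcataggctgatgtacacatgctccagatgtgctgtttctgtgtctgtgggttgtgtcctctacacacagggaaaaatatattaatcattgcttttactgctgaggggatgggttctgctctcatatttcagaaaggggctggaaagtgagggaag
Postn, chromosome 3, 54360857 to 54361156, plus strand: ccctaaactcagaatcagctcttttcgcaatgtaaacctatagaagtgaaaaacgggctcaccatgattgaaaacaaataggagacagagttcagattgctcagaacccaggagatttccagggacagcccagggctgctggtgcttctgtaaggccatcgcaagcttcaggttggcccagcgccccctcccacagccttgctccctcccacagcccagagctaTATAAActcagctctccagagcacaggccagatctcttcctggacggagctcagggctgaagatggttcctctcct
Nppb, chromosome 4, 147985650 to 147985949, plus strand: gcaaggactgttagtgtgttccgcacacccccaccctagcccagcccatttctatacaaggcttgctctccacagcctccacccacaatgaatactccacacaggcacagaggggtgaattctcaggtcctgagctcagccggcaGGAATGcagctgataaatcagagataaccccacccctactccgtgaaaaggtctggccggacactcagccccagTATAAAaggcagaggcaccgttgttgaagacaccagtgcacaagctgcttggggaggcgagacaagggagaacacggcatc
Of the 21 called matrix genes 13 had a window in the table, 15 windows in all, of which 2 held TATAAA, 3 CATTCC and none TGANTCA. Over the 14790 windows of the tested genes, 7.8% held TATAAA, 12.7% CATTCC and 5.44% TGANTCA. Over the 207 windows of the genes called lower these shares were 8.21, 15.9 and 6.28%, and over the 697 windows of the genes called higher 6.31, 11.5 and 4.73%. The 32851 windows of all genes in the table, tested or not, gave 13.6, 14.7 and 7.81%.

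The same genes were then read in AngII and sham libraries of the other doses, which share no library with this comparison. Of the 906 called genes, 834 had the same sign in vehicle and 825 at 5 mg, or 92.1 and 91.1%, beside 70.0 and 69.3% of all genes tested. The median of the 675 higher genes was 2.08 at 50 mg, 1.08 in vehicle and 0.92 at 5 mg; that of the 231 lower genes was -1.80, -0.59 and -0.63. Sizes at 50 mg are raised by the choice of the genes there, so these medians cannot be compared as effects. Called genes numbered 10 in vehicle (0.0598% of those tested, 2752 at an unadjusted p under 0.05), 8 higher (0.0478%) and 2 lower (0.0120%), and 0 at 5 mg (2004 at an unadjusted p under 0.05, with 277 by DESeq2), and 7 of the 906 were among the 10. These counts hang on the AngII 5 mg libraries, which entered the estimate of the spread. The counts in vehicle and at 50 mg rose strongly when either number 3 or number 4 was left out. Leaving out number 4, but not number 3, also raised the count at 5 mg strongly. Among large rises, Rnf207 was at 4.55, 3.37 and 2.84 at 50 mg, in vehicle and at 5 mg, Cacna1c at 3.89, 2.12 and 1.89, and Mir208b at 6.47, 4.66 and 4.92. All of these values were above 0, and in vehicle Rnf207 and Mir208b passed (adjusted p = 0.0468 for both, edgeR) and Cacna1c did not (adjusted p = 0.0995, edgeR). Hba-a2 was at 3.03, -0.31 and 1.69, Fbn1 at -2.07, -0.18 and 0.27, and Tcf4 at -2.60, 0.81 and -0.23, without a common direction.

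**Figure D5:**
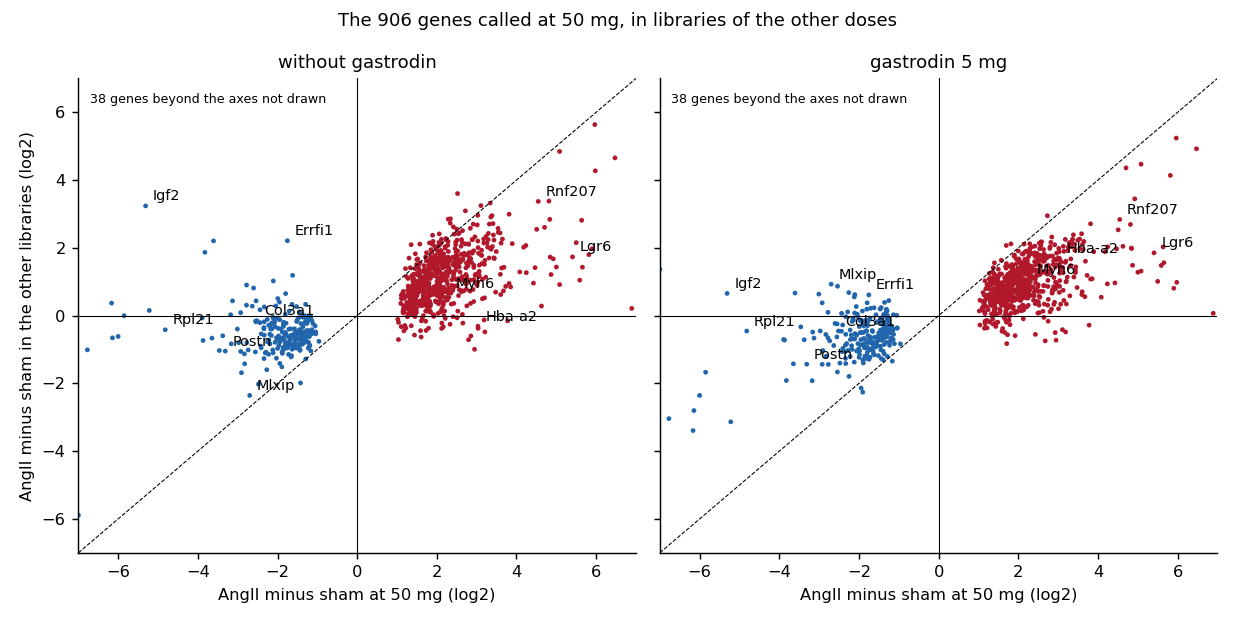
Difference AngII minus sham (log2) of the 906 genes called at 50 mg (x) against the same genes without gastrodin (left, y) and at 5 mg (right, y). Most red points lie above 0 on both y axes (633 and 629 of 675). Errfi1 lies on opposite sides of 0 at 50 mg and without gastrodin. The Igf2 point does so too, but Igf2 added together with Gm49394 was at -1.98 and -0.23, on the same side of 0. The dashed line marks equal values; 38 genes beyond the axes are not drawn in each panel.

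The difference between doses was tested directly as an interaction. AngII against sham differed between 50 mg and vehicle for 5 genes (0.0299% of those tested, 1159 at an unadjusted p under 0.05) and between 50 mg and 5 mg for 1 gene (0.00598%, 1081 at an unadjusted p under 0.05). Errfi1, which shares no exon bases with another gene, was called: AngII minus sham was -1.75 at 50 mg and 2.21 in vehicle, and the interaction was -3.96 ± 0.45 (adjusted p = 0.00466, edgeR). In vehicle Errfi1 was at 10.9 and 7.25 CPM in AngII and 1.77 and 2.15 CPM in sham, so that the order of the arms was turned. Rpl21 differed by -4.40 ± 0.45 from vehicle (adjusted p = 0.00187, edgeR) and by -4.36 ± 0.44 from 5 mg (adjusted p = 0.00373, edgeR). The 2 models of the Igf2 locus were also called, but as 1 unit the interaction was -1.75 ± 0.54 with vehicle (adjusted p = 0.520, edgeR) and -2.63 ± 0.55 with 5 mg (adjusted p = 0.213, edgeR). The predicted gene Gm10036 was the fifth. Among the next in the test against 5 mg, without passing, were Mlxip (adjusted p = 0.0674, edgeR), Cep85 (adjusted p = 0.101, edgeR) and Klhdc10 (adjusted p = 0.133, edgeR). Cep85 was at 9.55 and 9.10 CPM against 1.42 and 1.35 CPM at 50 mg (2.75 ± 0.33) and showed -0.16 at 5 mg. Mlxip was at -2.70 at 50 mg, -2.36 in vehicle and 0.93 at 5 mg.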

How the data were processed

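RNA of 12 mouse heart samples, 2 in each of 6 groups, was measured with TruSeq libraries made from 1 µg of total RNA and sequenced as paired 250-base reads on a NovaSeq, per the labels' protocols. The submitters' processing notes name HISAT2 2.2.1, StringTie 2.1.3 and the GRCm38.p6 genome; for the counting tool, its strand setting and the annotation, nothing is stated in the labels. The authors deposited raw counts for 27504 genes in all 12 libraries and TPM values per library for 14271 genes. The TPM values served for 1 alternative, as log2(TPM + 1).

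Genes were kept by edgeR's filterByExpr (minimum count 10, minimum total 15), normalized by TMM, and a model with a mean for each group was fitted to the 12 libraries together (quasi-likelihood F-test, R 4.3.3, edgeR 4.0.16, limma 3.58.1, DESeq2 1.42.0; 6 residual degrees of freedom, biological coefficient of variation 0.476). Adjusted p-values are Benjamini-Hochberg values over all 16723 genes, with a threshold of 0.05, and a gene below it is called. Standard errors were derived from the fitted change and its F value. Folds against groups with 0 counts used a floor of 3 counts over the group, which covers counting error only. Simulated counts for 15771 genes tested the fit and gave 3 false calls. Their spread followed the fitted trend with level, without a spread of each gene's own or an outlying library. The number of false calls in the real libraries can therefore not be read from them.

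The comparison, the gene lists and the members were chosen with earlier results of these data known. Named genes are the 12 largest called rises and falls whose groups do not overlap and whose average log2 CPM reaches 1, without predicted genes and pseudogenes; 10 fixed genes; up to 4 called members of each of 47 lists by p; and called or next genes of each interaction. Genes that meet this rule but are withheld are not reported here. Symbols, coordinates and exon overlaps are from GENCODE M21 (GRCm38). Alternatives changed the filter, scaling, test, unit, covariate, GC correction, overlapping genes and libraries, 25 in all. Libraries of 1 group were not duplicates of each other: their counts differed beyond sampling noise in each group.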

Additional observations from a re-analysis of the deposited data

Results flagged for a closer look

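The difference between AngII and sham was itself different at 50 mg and in vehicle for 5 genes, by edgeR's quasi-likelihood test of the interaction over all genes. Rpl21 had an adjusted p of 0.00187 (-4.40 ± 0.45, edgeR), and its level was set apart in the sham 50 mg libraries alone. Errfi1 had an adjusted p of 0.00466 (-3.96 ± 0.45, edgeR), with AngII above sham in vehicle and below it at 50 mg. Gm49394 (adjusted p = 0.00187, edgeR) and Igf2 (adjusted p = 0.0186, edgeR) share exon bases, moved in opposite directions, and gave an adjusted p of 0.520 (edgeR) when added together. Gm10036 had an adjusted p of 0.0293 (-5.85 ± 0.83, edgeR). Between 50 mg and 5 mg the difference was called for Rpl21, with an adjusted p of 0.00373 (-4.36 ± 0.44, edgeR).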

How the results depend on the processing

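The count of 906 called genes moved to 284 with a limit of 1.5-fold added, 2276 with DESeq2's Wald test, 18 with limma-trend on TPM, 2228 with no filter, 445 with the nuclear share as a covariate, 1854 with only the compared groups in the fit, and 535 without sham 50 mg number 12 and AngII 5 mg number 4, an alternative chosen after seeing the data. Leaving out 1 library in turn gave 50 (sham 50 mg number 12) to 2055 (AngII 5 mg number 4). With the GC trend removed, 516 of the called genes were higher and 300 lower, or 63.2% higher beside 74.5%. The 5 genes whose effect differed from vehicle became 114 with DESeq2, 231 with no filter, 14 with the covariate, 3 with overlapping genes summed, 9 without those 2 libraries, and 2 to 23 leaving out 1 library. The 1 gene that differed from 5 mg became 102 with DESeq2, 2 with the GC trend removed, 2 with the 1 CPM filter, 0 with limma-voom, 197 with no filter, 17 with the covariate, 4 with only the compared groups, 2 with overlapping genes summed, 6 without those 2 libraries, and 0 to 21 leaving out 1 library. In vehicle the count of 10 became 718 with DESeq2, 5 with limma-voom, 6 without mitochondrial, ribosomal RNA and haemoglobin genes, 1109 with no filter, 147 with the covariate, 233 with only the compared groups, 5 with overlapping genes summed, 448 without those 2 libraries, and 0 to 535 leaving out 1 library. At 5 mg the count of 0 became 277 with DESeq2, 661 with no filter, 912 without those 2 libraries, and 0 to 1187 leaving out 1 library. The cause of these moves was not tested. The sign of Acta1 turned to 0.18 without those 2 libraries, 0.26 with TPM, 0.15 without AngII 50 mg number 6 and 0.18 without sham 50 mg number 12 (leaving out 1 library, -0.82 to 0.18), and that of Gm49394 to -1.98 when summed with Igf2. Of 105 named genes called, 104 kept their direction in every alternative; 22 kept the call in all 12 fits that left out 1 library, 26 without sham 50 mg number 12, and 9 of 104 with TPM. The direction of called genes was largely fixed in advance, because the 4 libraries did not overlap between the groups for any of the 906. No paired analysis was possible because the groups share no replicate number. With 2 libraries a group, differences under 2-fold were mostly out of reach of the test.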
